A study of Mus musculus with 12 samples.

Results

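The chromatin of 33 mouse genes that direct T cell traffic was examined: chemokine receptors, sphingosine 1-phosphate (S1P) receptors, the selectin ligand gene Selplg, Cd44, integrin subunits and the guidance receptors Gpr15 and Gpr183. The genes were chosen by name. Peaks of 12 ATAC-seq libraries sharing at least 1 bp were merged into 76882 regions, and a region belonged to a gene if its midpoint lay in the gene body or, outside all gene bodies, nearest to that gene's end within 50 kb. Of the 33 genes, 31 had at least 1 region, with 246 regions among them. ATAC-seq marks open chromatin by where a transposase can cut, and each deposited list says only where a library had a peak. The number of reads behind a list is unknown, so a region without a peak is not known to be closed.

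The cells were CD4 T cells of Balb/c mice. T cells carrying the 6.5TCR transgene, a receptor for influenza hemagglutinin (HA), were transferred into Aire-HA mice, a line in which the Aire gene's control sequences drive HA, and bone marrow T cells were sorted 14 days later. The question was how the open chromatin of donor cells that became regulatory T cells (Treg) compares with that of other Treg and of conventional cells (Tconv). Each of the 6 groups had 2 libraries, and the labels do not say whether these came from separate animals.

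Donor Tconv were CD45.2+ and CD45.1-, CD3+CD4+ and CD25-, and donor Treg by the same markers but positive for CD25 and LAP, the latent TGF-beta peptide. Host Tconv, titled host WT (wild-type) conventional T cells, were CD45.1+ and CD45.2-, CD3+CD4+ and CD25-. Host pTreg and host tTreg were CD4+CD25+CTLA4+ T cells positive for both CD45 forms and differed in Nrp1, which pTreg lacked and tTreg carried. The iTreg group was induced in culture and was positive for CD3, CD4, CD25 and LAP. Donor cells and host Tconv thus carried different alleles of Ptprc, the gene of CD45, while host Treg were labelled with both forms. The labels do not explain this difference between the host groups. Run code BW13 covered both donor groups and host Tconv, DR31 covered host pTreg and tTreg, and the iTreg libraries had none. Comparisons across codes cannot be told apart from the run.

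Homing follows a sequence of steps. Selectins catch ligands such as PSGL-1, the Selplg product, and slow a cell on the vessel wall. Chemokine receptors then signal through G proteins, integrins are activated and bind their ligands on the endothelium, and the cell crosses. In bone marrow, stromal CXCL12 holds CXCR4-bearing cells and VCAM-1 binds the integrin of alpha 4 and beta 1 chains, while S1P in blood draws S1PR1-bearing cells out.

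The promoters of 5 of these genes are printed first, because their start sites span the patterns found: a peak in all 12 libraries (Cxcr4, Itga4), in 11 (Gpr15), in 1 (Ccr9), and in both iTreg libraries alone (Itga5). This concerns the start base only, and the merged region holding the Itga5 start had a peak in all 12 libraries. Each sequence is the 250 bases before the RefSeq start on GRCm38.p6, read 5′ to 3′ on the gene's strand. The windows are chr1:128592300-128592549 on the minus strand for Cxcr4, chr2:79255176-79255425 on the plus strand for Itga4, chr16:58718873-58719122 on the minus strand for Gpr15, chr9:123766961-123767210 on the plus strand for Ccr9 and chr15:103366792-103367041 on the minus strand for Itga5. On either strand, capitals mark GGGCGG (Sp and KLF factors), then CACCC (KLF factors) and finally TGTGGT (RUNX factors).
Cxcr4: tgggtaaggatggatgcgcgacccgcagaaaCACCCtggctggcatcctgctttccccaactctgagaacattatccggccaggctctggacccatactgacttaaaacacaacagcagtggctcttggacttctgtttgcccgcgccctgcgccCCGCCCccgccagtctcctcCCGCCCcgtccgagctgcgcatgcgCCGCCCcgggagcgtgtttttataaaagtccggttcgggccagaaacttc
Itga4: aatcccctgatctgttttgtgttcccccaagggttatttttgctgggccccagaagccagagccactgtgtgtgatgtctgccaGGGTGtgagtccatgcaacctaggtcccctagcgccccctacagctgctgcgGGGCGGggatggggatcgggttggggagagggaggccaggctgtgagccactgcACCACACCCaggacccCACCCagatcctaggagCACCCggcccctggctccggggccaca
Gpr15: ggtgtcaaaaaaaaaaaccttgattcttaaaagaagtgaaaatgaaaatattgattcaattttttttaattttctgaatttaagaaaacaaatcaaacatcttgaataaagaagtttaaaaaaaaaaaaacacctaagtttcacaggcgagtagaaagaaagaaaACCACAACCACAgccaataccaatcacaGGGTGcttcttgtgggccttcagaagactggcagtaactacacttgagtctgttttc
Ccr9: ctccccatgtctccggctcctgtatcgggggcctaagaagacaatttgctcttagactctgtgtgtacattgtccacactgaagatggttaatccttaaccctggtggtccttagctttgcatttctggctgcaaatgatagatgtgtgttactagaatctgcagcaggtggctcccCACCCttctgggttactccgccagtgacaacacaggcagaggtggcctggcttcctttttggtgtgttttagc
Itga5: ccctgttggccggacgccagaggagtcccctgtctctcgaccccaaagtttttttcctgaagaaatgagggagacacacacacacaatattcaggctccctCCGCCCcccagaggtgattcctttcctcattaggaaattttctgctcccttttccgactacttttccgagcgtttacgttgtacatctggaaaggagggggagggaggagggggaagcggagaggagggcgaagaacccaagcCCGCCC

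In the RefSeq promoter table, 24 of the 33 genes had an entry, with 25 start sites. GGGCGG lay in 5 of the 25 promoters against 32.7% of all 32851 promoters of the same length, CACCC in 16 against 52.0%, and TGTGGT in 6 against 14.0%. The AP-1 motif TGANTCA was in 3 against 6.75%, the ETS motif CCGGAA in 1 against 12%, and the forkhead motif TGTTTAC in 0 against 3.17%. Both strands were searched, and in the Itga4 promoter a TGTGGT match overlaps a CACCC match. The Cxcr4 promoter held 3 GGGCGG matches and 19 CpG sites at a GC content of 61.2%, where the median promoter had 6 CpG sites and 52.4% GC. That of Gpr15 held 2 adjoining TGTGGT matches at 31.6% GC. A match describes the letters and does not show that a factor binds.

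Most start sites did not differ between the groups. Of 25 start sites, 13 lay in a peak in all 12 libraries, those of Cxcr3, Cxcr4, Cxcr6, Ccr4, Ccr8, Cx3cr1, S1pr2, Cd44, Itga2, Itga4, Itgb1, Itgb7 and Gpr183. The start sites of Ccr1, Ccr2, Ccr3, Cxcr2, Itga1 and S1pr5 lay in no peak in any library. Those of Ccr6, the receptor for CCL20, lay in peaks of few libraries. The site at position 8236043 of chromosome 17 was in a peak in host pTreg replicate 1 and iTreg replicate 1, and the site at 8242526 in host pTreg replicate 2, host tTreg replicate 2 and both iTreg libraries. The start of S1pr4 was in a peak in both donor Tconv libraries, host Tconv replicate 2 and iTreg replicate 1. Gpr15 lacked a peak at its start only in host pTreg replicate 2, and Ccr9 had a peak there only in donor Tconv replicate 2.

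Cxcr2 and Cxcr6 had no region by the rule. For Cxcr6 this came from the midpoint rule: the region chr9:123805917-123806773, with a peak in all 12 libraries, covers its start site but has its midpoint 132 bp below the gene, in the body of Fyco1. Cxcr2, a receptor for neutrophil-attracting chemokines, had no peak at its start either.

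Libraries differed in length, and this bears on every count. They held 28394 to 63207 peaks: 37050 to 47193 in the 4 Tconv libraries, 28394 to 37934 in the 6 in vivo Treg libraries and 58357 and 63207 in iTreg. Homing gene regions with a peak numbered 166 and 159 in donor Tconv, 131 and 151 in donor Treg, 132 and 153 in host Tconv, 155 and 138 in host pTreg, 125 and 151 in host tTreg, and 157 and 173 in iTreg. Per 10000 regions of the library these were 34.9 to 37.0 in Tconv, 41.9 to 46.3 in in vivo Treg and 27.3 to 27.6 in iTreg, ranges that do not overlap. All 8 T cell marker genes and all 6 Treg marker genes had a peak in every library, and Cd79a, Csf1r, Elane and Hbb-bs, which define B, myeloid and red cells, had none. Since the Treg markers had peaks in the Tconv libraries too, this does not tell Treg from Tconv. Over the 6 Treg marker genes, 40 and 39 regions had a peak in donor Tconv and 45 and 49 in donor Treg. For Foxp3 the numbers were 4 and 4 in donor Tconv and 2 and 2 in donor Treg. Of 12 regions at the CD8 genes Cd8a and Cd8b1, 8 and 6 had a peak in donor Tconv, 5 and 5 in host Tconv, 7 and 6 in iTreg, and 0 or 1 in each in vivo Treg library. The part of list length and of these markers in the results was not tested. The comparison at equal list length below also changes the narrowest peak kept in each library, so it cannot isolate list length.

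Homing gene regions were shared widely. A peak in each of the 12 libraries was found at 80 of the 246 regions (32.5%), against 27.9% of all regions, and a peak in 1 library at 29 (11.8%), against 14.9%. The median homing region had a peak in 8 libraries and was 580 bp wide, against 5 libraries and 461 bp over all regions.

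Treg libraries (donor Treg, host pTreg, host tTreg and iTreg, 8 in all) differed from the 4 Tconv libraries at 9 homing gene regions in 7 genes. Among them were receptors (Cxcr4, Cxcr5, Ccr9), the selectin ligand gene Selplg, and integrin alpha chains (Itga4, Itga6, Itgal). Each region was put to Fisher's exact test, two-sided, and p was adjusted by Benjamini-Hochberg over 18887 testable regions. By this test 3 of 71 testable homing regions (4.23%) were higher in Treg and 6 (8.45%) in Tconv, against 1.39% and 4.98% of all testable regions. Each of the 9 had a peak in every library of its side and in none of the other, for an exact p of 0.00202 and an adjusted p of 0.0317, the smallest that 8 against 4 libraries allow here. All 9 calls, and all others in the genome, were lost when any 1 of 9 libraries was left out: either donor Tconv, donor Treg, host pTreg or host tTreg library, or host Tconv replicate 2. Without those, 4 to 6 homing regions were higher in Treg and 9 to 12 in Tconv at an unadjusted exact p under 0.05. All 4 Tconv libraries had run code BW13, which among Treg libraries only those of donor Treg had. This contrast is thus partly one of runs.

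Cxcr4, the receptor that holds cells in bone marrow, had 2 neighbouring regions open in Tconv alone. Upstream of the gene, chr1:128601071-128601790 (9.13 kb from the gene end) and chr1:128602121-128603413 (10.5 kb) had a peak in both donor Tconv and both host Tconv libraries and in none of the 8 Treg libraries. The longest lists, those of iTreg, held neither. A farther upstream region, chr1:128623118-128623309 (30.9 kb), had a peak in host tTreg replicate 2 and the pair of donor Treg libraries only. The promoter printed above had its start in a peak in all 12 libraries, and 5 of the 11 Cxcr4 regions had a peak in every library. The region chr1:128569918-128570553, 18 kb downstream, had a peak in every library except those of iTreg.

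Cxcr4 lies on chromosome 1, 9.47 Mb from Ptprc, whose alleles differ between donor cells and host Tconv. No Cxcr4 region separated donor Tconv from host Tconv. Within 5 Mb of Cxcr4, 13 of 242 regions (5.37%) separated toward donor Tconv and 6 (2.48%) toward host Tconv, against 4.4% and 0.557% over the genome. Within 1 Mb the counts were 2 and 0 of 54.

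**Figure D1:**
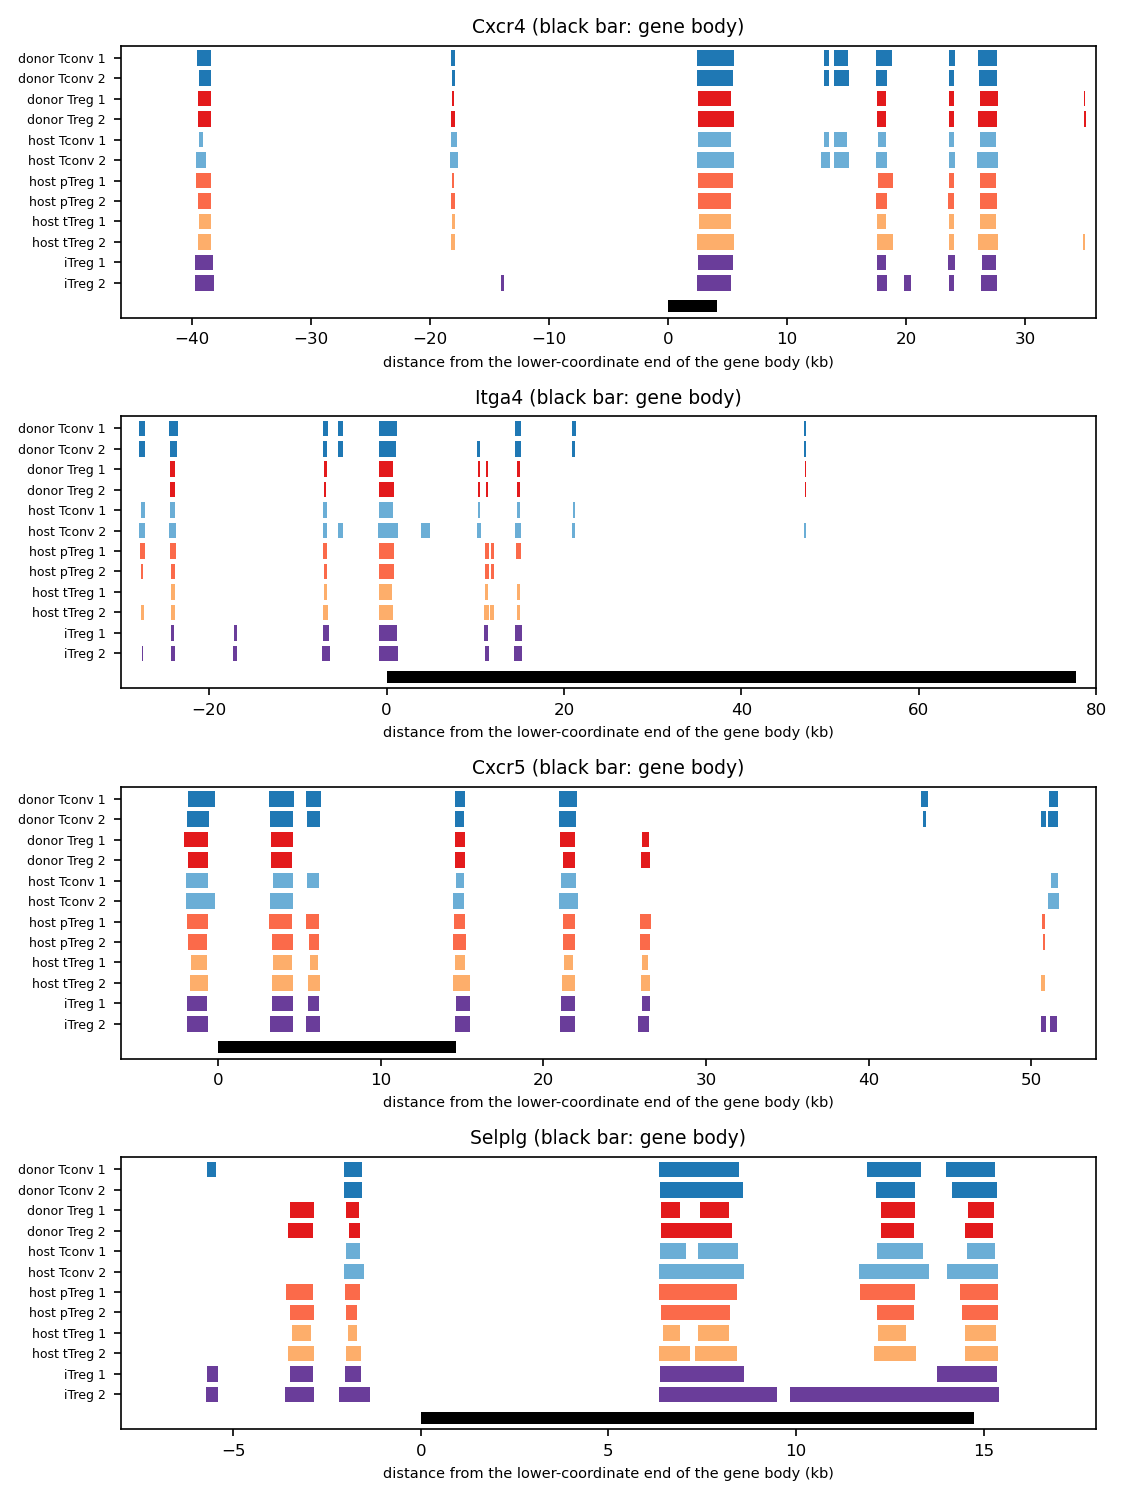
Peaks of the 12 libraries around Cxcr4, Itga4, Cxcr5 and Selplg; the x axis is the distance in kb from the lower-coordinate end of the gene body, each row is a library coloured by group, and each block is a called peak. At Cxcr4 the 4 Tconv libraries share peaks above the gene that the 8 Treg libraries lack, and at Cxcr5 and Selplg the 8 Treg libraries share a peak that the 4 Tconv libraries lack.

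Cxcr5, which guides cells to B cell follicles, went both ways. The region chr9:44537595-44538384, 11.5 kb above the gene, had a peak in each of the 8 Treg libraries and in none of the 4 Tconv. Farther out, chr9:44562786-44563506 (36.7 kb) had a peak in all 4 Tconv libraries and in iTreg replicate 2, with an exact p of 0.0101 and an adjusted p of 0.0996 that did not pass. The region chr9:44555002-44555428 (28.8 kb) had a peak only in the 2 donor Tconv libraries. Within the gene, chr9:44517163-44518116 lacked a peak in host Tconv replicate 2 and the donor Treg libraries and had one in the other 9.

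Ccr9, the receptor for the thymus and gut chemokine CCL25, had most of its peaks in Tconv. The region chr9:123763775-123764134, 3.26 kb upstream, was called in the 4 Tconv libraries and in no Treg library. In the gene body, chr9:123769133-123770076 had a peak in the 4 Tconv libraries and in iTreg replicate 2 (adjusted p = 0.0996 by Fisher's exact test). Of 7 Ccr9 regions, donor Tconv had 5 and 5, host Tconv 3 and 5, donor Treg 1 and 2, each host Treg library 1, and iTreg 3 and 4. The groups of in vivo Treg and Tconv libraries did not overlap in this number.

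Selplg encodes PSGL-1, the ligand that selectins bind. The region chr5:113814189-113814965, 3.22 kb below the gene, had a peak in each of the 8 Treg libraries and in no Tconv library. Its other 4 regions did not separate Treg from Tconv, and 3 of its 5 had a peak in all 12 libraries.

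Itga4 encodes the alpha 4 chain of the VCAM-1 and MAdCAM-1 receptors, and its body held a region of each kind about 10 kb apart. The first, chr2:79266409-79266939, had a peak in all 8 Treg libraries and no Tconv library, and the second, chr2:79276287-79276743, had a peak in all 4 Tconv libraries and no Treg library. The call of the first was lost at equal list length (adjusted p = 0.234 by Fisher's exact test), among peaks of at least 300 bp (0.106) and where a peak had to cover 50% of the region (0.112). The second was lost among peaks of at least 300 bp (0.115). Next to the first, chr2:79265600-79266020 had a peak in donor Tconv replicate 2 and in both libraries of donor Treg and of host Tconv, and in no other.

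Further Itga4 regions separated donor Treg from another group. The region chr2:79302481-79302741 had a peak in both donor Tconv and both donor Treg libraries and in host Tconv replicate 2. Upstream, chr2:79249968-79250502 (5.19 kb) had a peak in both donor Tconv libraries and host Tconv replicate 2. At 27.6 kb, chr2:79227471-79228217 lacked a peak in both donor Treg libraries, host tTreg replicate 1 and iTreg replicate 1. The promoter printed above lay in a peak in every library.

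Itga6, the alpha 6 chain of laminin-binding integrins, had 3 regions in donor Tconv and not in donor Treg, and none the other way. The region chr2:71780842-71781100, 5.92 kb below the gene, had a peak in the 4 Tconv libraries only. In the body, chr2:71844420-71844963 was shared by the 4 Tconv libraries and iTreg replicate 2 (adjusted p = 0.0996 by Fisher's exact test), and chr2:71793342-71794083 by the 4 Tconv and both iTreg libraries. This last pattern, Tconv and iTreg without in vivo Treg, was found at 1 of 246 homing regions (0.407%) against 3.21% of all regions. The region chr2:71809197-71810686 was open in every library except iTreg.

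Itgal encodes the alpha L chain of LFA-1, which binds ICAM-1. Its region chr7:127302062-127302396 in the gene body had a peak in the 4 Tconv libraries only, and the other 5 Itgal regions did not separate the groups of in vivo cells.

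At equal list length 4 homing regions were called toward Treg and 5 toward Tconv by Fisher's exact test (adjusted p = 0.02 for each). Of the 9 named so far, the 2 Cxcr4 regions and the Treg regions of Cxcr5 and Selplg were among them. The Tconv regions of Ccr9, Itga4, Itga6 and Itgal called with full lists, 259 to 457 bp wide, no longer had peaks or were no longer testable. The other 5 calls were not called with full lists. Toward Tconv they were the Ccr9 and Itga6 body regions and the outer Cxcr5 region described above with an adjusted p of 0.0996 by that exact test. Toward Treg they were the region upstream of Ccr6, chr17:8233457-8234189, and the Cx3cr1 start region, chr9:120067774-120068610, which had a peak in all 12 full lists. The narrowest peak kept was 150 to 287 bp in in vivo Treg, 270 to 395 bp in Tconv, and 447 and 498 bp in iTreg. The Cx3cr1 peaks of the Tconv libraries, 150 to 367 bp, fell under the width kept in their lists. These calls thus also depend on unequal widths.

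Between the 2 donor populations, which shared a transgene, hosts and a run code, 195 homing regions had a peak. Of these, 11 (5.64%) were open in the pair of donor Treg libraries and in neither of donor Tconv, against 2.41% of all such regions. The reverse held for 23 (11.8%), against 19.9%. With 2 libraries against 2 no test of a region can go below 1 in 3, so these are counts of complete separation with no p. With every list cut to the 28394 widest peaks, the counts turned to 17 (11.3%, against 7.82% of all) for donor Treg and 9 (5.96%, against 9.43%) for donor Tconv. The order of the 2 raw counts thus changed under this cut. It kept narrower peaks in donor Treg (down to 212 and 240 bp) than in donor Tconv (395 and 365 bp). The parts of list length and of peak width cannot be told apart. With gene ends within 10 kb only, donor Treg regions numbered 4 (2.88%, against 2.41% of all), a share near the background.

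**Figure D2:**
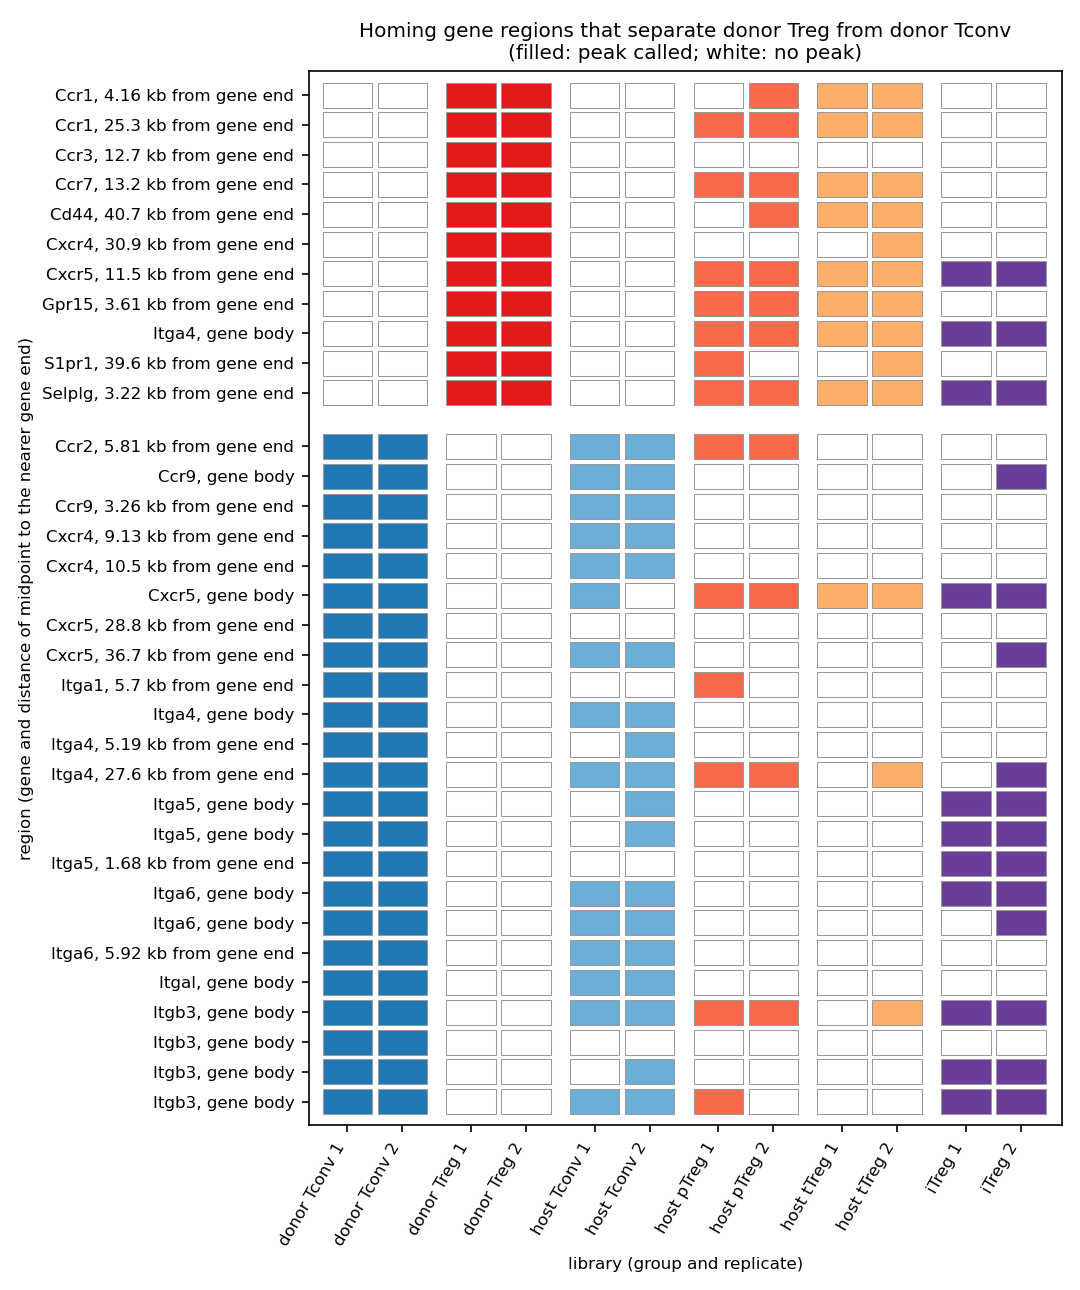
Each row is a homing gene region that separates donor Treg from donor Tconv, named by gene and distance in kb from the nearer gene end, and each column is a library; filled tiles have a peak. The upper 11 rows have a peak in the donor Treg libraries and the lower 23 in those of donor Tconv, and the other 8 columns show how the remaining groups behaved at the same regions.

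The 11 donor Treg regions belonged to 10 genes. Besides those of Cxcr5, Selplg, Itga4 and Cxcr4 given above, 3 had a peak in all 6 in vivo Treg libraries and in none of the other 6. They lay 25.3 kb downstream of Ccr1 (chr9:123936422-123937139), 13.2 kb above Ccr7 (chr11:99167990-99168566) and 3.61 kb upstream of Gpr15 (chr16:58722255-58722701). This pattern took 1.22% of homing regions against 0.388% of all. Ccr1 is a receptor for CCL3 and CCL5, Ccr7 guides cells to lymph nodes along CCL19 and CCL21, and Gpr15 guides T cells to the colon.

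The remaining 4 were shared by fewer libraries. A second Ccr1 region (chr9:123957821-123958107, 4.16 kb) and a Cd44 region 40.7 kb upstream (chr2:102942160-102942668) had a peak in both libraries of donor Treg and of host tTreg and in host pTreg replicate 2. CD44 binds hyaluronan. A S1pr1 region 39.6 kb above the gene (chr3:115754507-115754877) had a peak in host pTreg replicate 1, host tTreg replicate 2 and the pair of donor Treg libraries. A Ccr3 region (chr9:124044227-124044458, 12.7 kb) had a peak in the donor Treg libraries and no other; Ccr3 is best known as the eotaxin receptor.

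The 23 donor Tconv regions also belonged to 10 genes, with 4 in Itgb3, 3 each in Cxcr5, Itga4, Itga5 and Itga6, 2 each in Ccr9 and Cxcr4, and 1 each in Ccr2, Itga1 and Itgal. Itgb3, the beta 3 chain of the vitronectin receptor, had 11 and 11 regions with a peak in donor Tconv, 6 and 11 in host Tconv, 5 and 6 in donor Treg, 9 and 8 in host pTreg, 6 and 10 in host tTreg, and 9 and 12 in iTreg. The numbers in donor and host Treg overlapped, and the host Tconv libraries differed from each other. The 4 Itgb3 regions lay in the gene body. Of these, chr11:104638959-104639314 lacked a peak in host tTreg replicate 1 and the donor Treg libraries, and chr11:104646675-104646969 had a peak in both donor Tconv libraries alone. The others, chr11:104648582-104648962 and chr11:104667321-104667944, also had a peak in both iTreg libraries.

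Itga5 encodes the alpha 5 chain of the fibronectin receptor. Its 3 regions, chr15:103342410-103342805, chr15:103347273-103347498 and chr15:103352849-103353232, had peaks in both donor Tconv and both iTreg libraries and in no in vivo Treg library, and the last pair also in host Tconv replicate 2. The start base of its promoter, printed above, lay in a peak in both iTreg libraries alone. The merged region that holds this start, chr15:103365285-103366824, had a peak in all 12 libraries. The Ccr2 region chr9:124114759-124115141, 5.81 kb downstream, had a peak in the 4 Tconv and both host pTreg libraries. CCR2 is the receptor for CCL2. The Itga1 region chr13:115107544-115107775, 5.7 kb upstream, had a peak in both donor Tconv libraries and host pTreg replicate 1.

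Against host Tconv, 17 of 185 homing regions (9.19%) separated toward donor Treg, where the background was 4.18%, and 14 (7.57%) toward host Tconv, where it was 12.8%. This comparison shares the donor Treg libraries with the one above. Among the 17 were 6 that did not separate the donor groups: 2 of Ccr6 and 1 each of Ccr2, Cd44, Gpr15 and Itga2. The Ccr6 regions chr17:8233457-8234189 (2.22 kb upstream) and chr17:8240115-8240819 (body) lacked a peak in both host Tconv libraries. The first lacked one also in donor Tconv replicate 2, and the second also in host pTreg replicate 2 and iTreg replicate 1. At equal list length the shares were 15.0% against 8.32% for donor Treg and 5.23% against 8.66% for host Tconv.

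Donor and host Tconv differed little. A peak in donor Tconv only was found at 8 of 182 homing regions (4.4%) and in host Tconv only at 1 (0.549%), against 4.4% and 0.557% of all regions, shares that match the background. The 8 lay in Ccr6, with 2, and in Cd44, Cxcr5, Itga1, Itga2, Itga5 and Itgb3, with 1 each. The reverse was an Itga2 region in the gene body, chr13:114894737-114895127, which had a peak in both host Tconv libraries, donor Treg replicate 2 and all 4 host Treg libraries. Itga2 encodes the alpha 2 chain of a collagen receptor.

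Host pTreg and host tTreg also stood near the background. A peak in host pTreg only was found at 6 of 174 homing regions (3.45%, background 3.35%) and in host tTreg only at 1 (0.575%, background 0.452%). The 6 included 2 of Itga1 (chr13:115097010-115097411 and chr13:115098155-115098644), whose product pairs with beta 1 to bind collagen, and 1 each of Ccr2, Ccr6, Itga2 and S1pr1. The S1pr1 region chr3:115704160-115705184, 5.76 kb below the gene, had a peak in all libraries except the pair of host tTreg. The tTreg region was chr9:21243991-21245166 in S1pr5.

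Donor Treg differed from the 4 host Treg libraries at 6 of 186 homing regions. A peak in donor Treg only was found at 5 (2.69%, background 1.12%) and in host Treg only at 1 (0.538%, background 0.815%). Among peaks of at least 300 bp the donor Treg share was below the background (0.694% against 1.32%), and at equal list length it was near it (1.85% against 1.57%). Of the 5, 2 were the Itga4 body regions chr2:79265600-79266020 and chr2:79302481-79302741, and the others were the Ccr3 region, a Cd44 body region (chr2:102851834-102852494) and an Itgb1 region 31.8 kb upstream (chr8:128653600-128654021). Itgb1 encodes the beta 1 chain that pairs with alpha 4. Both Itga4 regions, the Cd44 and the Itgb1 region also had a peak in at least 1 donor Tconv library. The host Treg region was the Cxcr5 body region named above. Donor Treg and host Treg differ in run code and cannot be told apart from it.

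**Figure D3:**
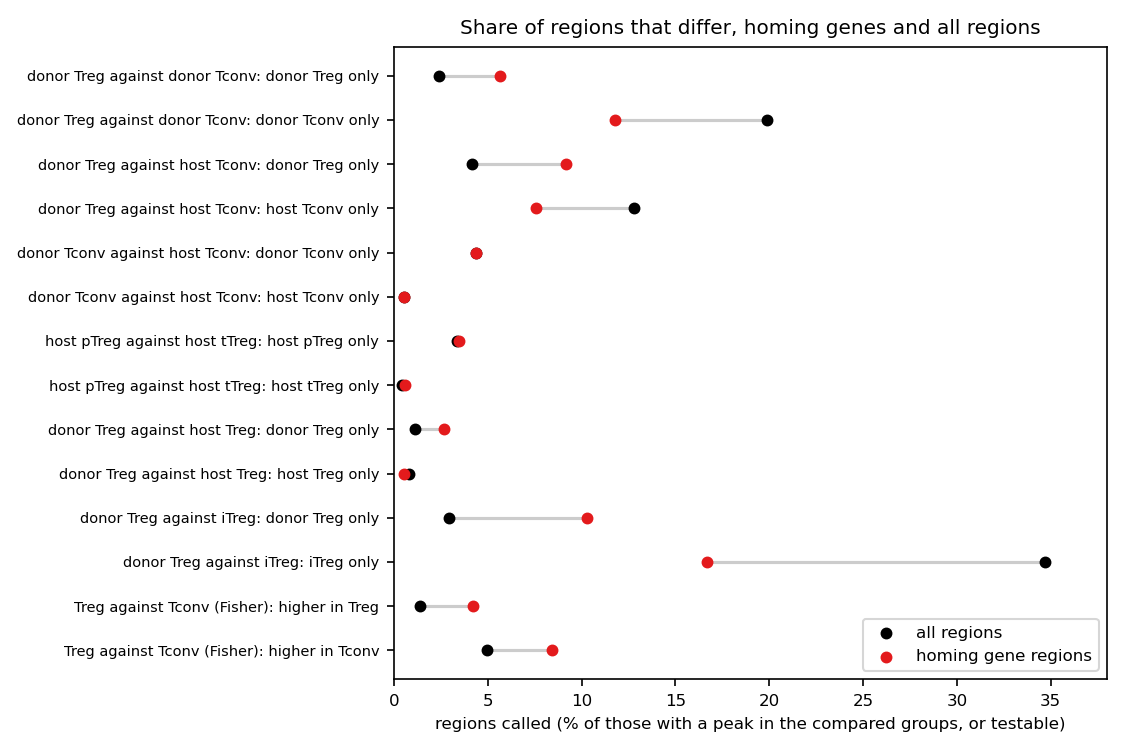
Share of regions called in each comparison and direction, in percent of regions with a peak in the compared groups or testable by Fisher's test; red points are homing gene regions and black points all regions. The homing share lay above the background for donor Treg against both Tconv groups and iTreg (5.64%, 9.19% and 10.3%) and below it in the reverse directions.

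iTreg, the cells induced in culture, had the longest lists and the fewest homing gene regions per 10000 regions. Of 204 homing regions, 21 (10.3%) had a peak in donor Treg and in neither iTreg library, against 2.92% of all regions, and 34 (16.7%) the reverse, against 34.7%. At equal list length these became 33 (22.1%, background 12.6%) and 11 (7.38%, background 13.9%). A peak in every library except iTreg was found at 4 homing regions (1.63%, background 0.636%), those of Cxcr4 and Itga6 named above, chrX:101737088-101737861 upstream of Cxcr3 and chr8:128650243-128650730 upstream of Itgb1. CXCR3 binds the interferon-induced chemokines CXCL9 and CXCL10. A peak in iTreg only was found at 16 homing regions (6.5%, background 16.5%): 3 of Cx3cr1, 2 each of S1pr1 and Cd44, and 1 each of Ccr4, Ccr6, Ccr7, Itga1, Itga2, Itga4, Itga6, Itgal and Itgb1.

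The length of genome covered at each gene gave a second view. It is stated as bases covered by peaks at the gene per Mb covered in the whole library. This ratio still moves with the length covered in a library, so it does not remove the part of list length. It compares a gene between libraries and not genes with each other. Every in vivo Treg library lay above every Tconv library at 6 of 31 genes (19.4%, background 10.5%): Ccr6, Cx3cr1, S1pr2, Cd44, Itga2 and Gpr15. Every in vivo Treg library lay below at 4 (12.9%, background 10.4%): Ccr7, Ccr9, Itga5 and Gpr183. With iTreg counted among the Treg libraries, 1 gene lay above (Ccr6, 3.23%, background 3.3%) and 3 below (Ccr7, Ccr9 and Gpr183, 9.68%, background 4.34%). In undivided bases, in vivo Treg and Tconv overlapped at the 6 genes above, while the 4 genes below stayed below. With iTreg counted, only Gpr183 of the 3 stayed below in undivided bases. The Tconv libraries covered 23.4 to 33.2 Mb in all and the in vivo Treg libraries 16.9 to 25.8 Mb, so undivided bases lean toward Tconv. The 4 genes below are thus not shown to be firmer than the 6 above.

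Ccr7 covered 462 and 366 bases per Mb in donor Tconv and 402 and 490 in host Tconv. It covered 267 and 301 in donor Treg, 308 and 256 in host pTreg, 288 and 283 in host tTreg, and 278 and 204 in iTreg. By this ratio the Tconv libraries lay above all 8 Treg libraries, although the only Ccr7 region separating the donor groups was in Treg. The number of Ccr7 regions with a peak was 8 or 9 in Tconv and 8 to 11 in in vivo Treg. The region that begins at position 99142534 of chromosome 11 and spans the gene's lower end had 6172 and 2774 bp covered in donor Tconv and 2095 and 6441 bp in host Tconv. In the 6 in vivo Treg libraries 468 to 2062 bp were covered there, and in iTreg 2496 and 0 bp.

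Gpr15 covered 47.7 and 45.6 bases per Mb in donor Tconv and 28.9 and 39.5 in host Tconv. In Treg it covered 98.7 and 102 in donor Treg, 82.4 and 60.2 in host pTreg and 125 and 124 in host tTreg, while iTreg had 37.0 and 43.2. The 6 in vivo Treg libraries all lay above the Tconv libraries, and iTreg lay among the latter. Cd44 covered 238 to 249 in Tconv and 313 to 389 in in vivo Treg, while iTreg, with 199 and 204, lay below both by this ratio. In undivided bases, Cd44 in iTreg (7570 and 8675) lay among in vivo Treg (6254 to 9594), and Tconv had 5568 to 8235.

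Ccr6 covered 7.62 to 35.0 bases per Mb in Tconv, where host Tconv had 9.64 and 7.62, against 55.0 to 102 in in vivo Treg and 72.2 and 84.5 in iTreg. Itga5 covered 45.6 to 61.3 in Tconv and 65.9 and 57.0 in iTreg, but 24.1 and 40.6 in donor Treg and 10.5 to 38.2 in host Treg. Gpr183, which guides cells along oxysterols, covered 117 to 133 in 3 Tconv libraries and 329 in host Tconv replicate 2, against 73.2 to 109 in in vivo Treg and 61.7 and 65.4 in iTreg. Its 2 regions had a peak in every library, so it differed in width only. Both regions also lay in the body of Ubac2. One of them, chr14:121958065-121966105, was covered over 8041 bp in host Tconv replicate 2 and over 637 to 1468 bp in the other libraries. Cxcr4 coverage did not separate Treg from Tconv: 288 to 331 in Tconv and 295 to 394 in in vivo Treg overlapped, while iTreg had 184 and 182. In undivided bases, Cxcr4 in iTreg (7006 and 7730) lay among in vivo Treg (6641 to 8047).

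**Figure D4:**
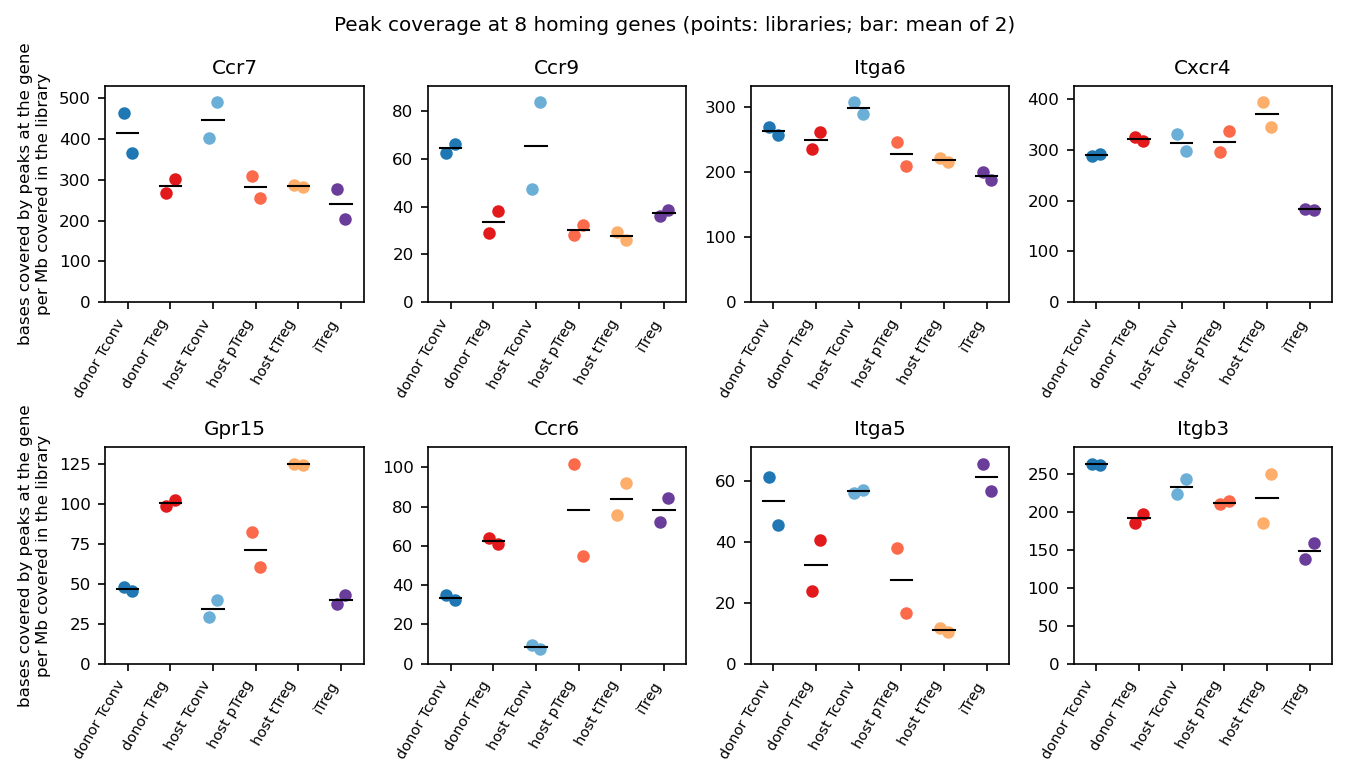
Bases covered by peaks at 8 homing genes per Mb covered in the library, in each library by group; points are the 2 libraries of a group and the bar is their mean. Ccr7 and Ccr9 lie higher in every Tconv library than in every Treg library, Gpr15 and Ccr6 higher in every in vivo Treg than in every Tconv library, and Cxcr4 lowest in iTreg. The ratio moves with the length covered in a library.

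The 21 genes described by region had at least 1 region that separated groups other than with iTreg. The other 10 genes with regions did not. S1pr2, S1pr4 and Ccr10 had 2, 1 and 1 regions, all in every library, and Gpr183 is described above. Ccr4, Ccr8, Cxcr3 and Itgb7 had 3 to 6 regions, Cx3cr1 had 9 and Itgb2 had 8. Ccr8 and Itgb7 separated no group, with 2 of 5 and 2 of 3 regions in all 12 libraries. The S1P receptor S1pr1, by which cells leave tissue, had 9 of its 18 regions in every library and covered 483 to 563 bases per Mb in Tconv and 383 to 562 in in vivo Treg, which overlap.

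Between the donor groups, genes that act around these receptors separated at shares near or below the background. A list of 95 genes for chemokine and S1P signalling, integrin activation and selectin ligand synthesis held 849 regions. Of 640 with a peak in the donor groups, 14 (2.19%, background 2.41%) were in donor Treg only and 97 (15.2%, background 19.9%) in donor Tconv only. By Fisher's exact test 2 of 220 (0.909%, background 1.39%) were higher in Treg and 8 (3.64%, background 4.98%) in Tconv. Against iTreg, 35 of 739 (4.74%, background 2.92%) were in donor Treg only and 199 (26.9%, background 34.7%) in iTreg only. The genes with most regions on a side between the donor groups are named as a description, since the shares give no result about the list. A gene with more regions has more that can separate, so totals are given for the larger counts. Toward donor Treg stood Itgb8 (4 of 8 regions), whose integrin activates TGF-beta, and Itgae (3 of 11), the alpha E chain binding E-cadherin. Toward donor Tconv stood the genes of Rac activators Elmo1 (10 of 43 regions), Prex1 (4 of 30), Dock2 (3 of 25) and Tiam1 (3 of 33). The integrin chains Itga9 (7 of 27) and Itgam (7 of 14, against 1 toward donor Treg) and Skap1 (5 of 28) stood there too. So did the transcription factor genes Foxo1 (4 of 26) and Klf2 (3 of 7), of which Klf2 is a known activator of S1pr1. Cytip, Cdc42, Cd226, Rgs10 and Rgs3 had 3 each, and Apbb1ip, Cd69, Rgs2, Rap1b, Vav1, Msn, St3gal6 and Ffar2 had 2 each.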

How the data were processed

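Peak lists of 12 ATAC-seq libraries in 6 groups were used. The tools named per the submitters' processing notes are Bowtie2 2.3.3, HOMER 4.10 and bedtools, on mm10. Not given in the sources used here are their roles and settings, the transposase shift and what the lists were intersected with. All peaks have a deposited score of 1000, which the authors' files give and which was not used; only coordinates were. Depth is not given.

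Peaks sharing at least 1 bp were merged and assigned to protein-coding genes of a RefSeq table (GRCm38.p6, coordinates as mm10), in Python 3.11.15 with numpy 2.4.6, pandas 2.3.3 and scipy 1.17.1; 89.9% of regions were assigned. Coordinates count from 1. Groups came from sample titles. Calls between groups required a peak in every library of one group and none of the other. Treg and Tconv libraries were compared by two-sided Fisher's exact test with Benjamini-Hochberg adjustment at 0.05. The test treats the libraries as independent, including the 2 of each group. With replicates not tied to separate animals, their likeness may be technical. The scripts were tested on simulated data. Promoters came from RefSeq.

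The homing genes, the pathway list and the markers were chosen with earlier results of these data known. Homing genes are described by region if a region separated 2 in vivo groups or passed Fisher's test, and pathway genes are named if 2 or more regions, net, did so. Alternatives were equal list lengths, peaks of at least 300 bp, 50% of a region covered, gene ends within 10 kb, leaving out each library and a replicate block; segments of at least 150 bp were chosen after seeing the data.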

Additional observations from a re-analysis of the deposited data

How the results depend on the processing

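With every list cut to its 28394 widest peaks, regions in donor Treg only against donor Tconv only numbered 17 and 9, in host Tconv only against donor Treg 8, in donor against host Tconv 4 and 2, in host pTreg against tTreg 2 and 4, in donor Treg only against host Treg 3, and in donor Treg against iTreg 33 and 11. Net regions then changed sign against iTreg for Cd44 (1), Cx3cr1 (2), Itga1 (1), Itga6 (1), Itgb3 (1) and S1pr1 (3), and for Itga1 against donor Tconv (1). Per 10000 regions, homing regions relative to donor Tconv were 1.2 times for donor Treg (0.868 as counted), 1.19 for host pTreg (0.902), 1.24 for host tTreg (0.849), 0.758 for iTreg (1.02) and 0.993 for host Tconv (0.877). Among peaks of at least 300 bp, counts were 8 for host Tconv only against donor Treg, 3 for donor Tconv only against host Tconv, 2 for host tTreg only, 1 for donor Treg only against host Treg, 11 for donor Treg only against iTreg and 3 for Fisher's test toward Tconv; the net turned for Ccr7 against donor Tconv (-1) and Itga4 against iTreg (-1). With 50% of the region covered, counts were 43 for donor Tconv only, 22 and 2 for host Tconv only against donor Treg and donor Tconv, 3 for host Treg only and 58 for iTreg only; the net turned for Ccr7 (-3 against donor Tconv, -1 against host Tconv), S1pr1 (-2 against donor Tconv) and Cxcr3 (-1 against iTreg). With gene ends within 10 kb, donor Treg only gave 4 against donor Tconv, 10 against host Tconv, 3 against host Treg and 11 against iTreg, and Itgb1 turned against iTreg (-1). Segments of at least 150 bp, chosen after seeing the data, gave 49 for donor Tconv only, 32 and 2 for host Tconv only against donor Treg and donor Tconv, 2 for host Treg only and 70 for iTreg only. The cause of these shifts was not tested.

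Leaving out 1 library gave 11 to 19 and 25 to 36 for donor Treg against donor Tconv, 17 to 26 and 16 to 28 against host Tconv, 5 to 11 and 1 to 9 against host Treg, 21 to 27 and 36 to 50 against iTreg, 10 to 25 and 1 to 4 for donor against host Tconv, and 6 to 19 and 2 to 10 for host pTreg against tTreg, where fewer libraries make separation easier. Fisher's exact test gave 0 to 3 and 0 to 9: with 9 of the libraries, no region in the genome passed when 1 was left out, and without host Tconv replicate 1, iTreg replicate 1 or iTreg replicate 2 the counts were 3 and 7, 3 and 6, and 3 and 9. With a replicate block, the 9 calls had an adjusted p of 0.0628, leaving 0 toward Treg and 0 toward Tconv by this exact test (6 and 10 at an unadjusted p under 0.05). Replicate numbers came from the sample titles; the descriptions number donor Treg and host Tconv as 2 and 3 where the titles have 1 and 2, so the block and this check rest on the titles. Numbers in the titles did not pair the libraries: over 15 pairs of groups the correlation of deviations was -0.131 to 0.0567, with none above 0.1 and 1 below -0.1 (host pTreg with tTreg, a comparison with no test to cross).

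A missing peak can be shallow sequencing, and depth behind each list is unknown. List length, run code and the numbers in library names (up to 17000 in in vivo Treg, 42000 to 50000 in the rest) move with the groups, so their part cannot be told apart from that of the cells. Distal regions are assigned by position, which does not show that they act on the gene named.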

Other observations

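Over homing gene regions alone, libraries other than iTreg resembled each other much as over all regions, while iTreg came closer to the other groups. The Jaccard index of homing regions, the share of regions with a peak in either library that have it in both, was 0.787 to 0.864 within 5 of the groups and 0.77 between the host Tconv libraries. Donor Treg libraries reached 0.762 to 0.79 with host tTreg and 0.71 to 0.789 with host pTreg, against 0.65 to 0.703 with donor Tconv and 0.651 to 0.68 with host Tconv. With iTreg the donor Treg libraries reached 0.551 to 0.63, where all regions gave 0.438 to 0.487. Host pTreg with iTreg had 0.563 to 0.608 (all regions 0.428 to 0.509), and host tTreg 0.552 to 0.584 (0.383 to 0.48). Donor Tconv with iTreg had 0.607 to 0.635 (0.558 to 0.597), and host Tconv 0.572 to 0.598 (0.492 to 0.578). Unequal list lengths lower the index, so no order is read from these values.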
